A study of Mus musculus with 6 samples.

Results

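The genes described here are the effectors and DNA-binding partners of the Hippo pathway: the coactivator genes Yap1 and Wwtr1 (the latter encodes TAZ), the transcription factor genes Tead1, Tead2, Tead3 and Tead4, the kinase genes Lats1 and Lats2, and the TEAD cofactor genes Vgll3 and Vgll4. Their regions were taken as all lines of the authors' deposited table whose listed gene, the one with the nearest transcription start site (TSS), was one of these 10, with no minimum on the difference. This gave 8 of 14176 regions, next to 6 of the 10 genes. The whole table lists 6741 genes. The table came from reduced representation bisulfite sequencing (RRBS) of liver DNA, in which MspI cuts at CCGG and bisulfite turns unmethylated cytosine into a base read as T. The groups were 3 normal livers and 3 macroscopic liver tumors of male C3H/HeN mice aged about 74 weeks, untreated control descendants from a gestational arsenic study, and the tumors were those with a Ha-ras mutation. Each region carries 1 mean difference in percent methylation (tumor minus normal, in percentage points) and nothing for single mice, so neither the level in each group nor a spread between mice could be given and no difference was tested. In bulk tissue a change in methylation within cells and a change in the mix of cell types cannot be told apart, and the tissue label could not be checked against marker expression because the table holds no expression.

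In the Hippo pathway the LATS kinases phosphorylate YAP and TAZ, which are then kept in the cytoplasm or degraded. When the kinases are inactive, YAP and TAZ enter the nucleus and bind TEAD proteins, which contact DNA and switch on genes of growth and survival. VGLL proteins also bind TEADs, and VGLL4 competes with YAP for them. In the mouse liver the pathway is known for the control of organ size, and its loss in hepatocytes gives enlarged livers and tumors.

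The DNA of the 4 regions with the largest absolute differences is printed to show the CpG sites that could stand behind each value. The sequences are the plus strand of the reference genome GRCm38 (mm10), 5' to 3', with each CpG in capitals. A lone capital at an end belongs to a CpG that the region's bound divides. The Wwtr1 region lay at chr3:57574114-57574390, the region of Vgll3 farther from its TSS at chr16:66201489-66201617, the Yap1 region at chr9:7977641-7977859 and the Vgll4 region at chr6:114888270-114888478.
Wwtr1: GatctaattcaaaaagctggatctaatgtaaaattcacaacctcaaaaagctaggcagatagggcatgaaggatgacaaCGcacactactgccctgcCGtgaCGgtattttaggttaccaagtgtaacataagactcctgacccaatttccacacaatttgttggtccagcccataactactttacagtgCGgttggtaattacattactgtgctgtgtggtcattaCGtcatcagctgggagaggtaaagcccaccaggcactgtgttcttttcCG
Vgll3, farther region: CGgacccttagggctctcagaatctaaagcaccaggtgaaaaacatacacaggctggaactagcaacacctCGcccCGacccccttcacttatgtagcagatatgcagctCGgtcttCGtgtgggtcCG
Yap1: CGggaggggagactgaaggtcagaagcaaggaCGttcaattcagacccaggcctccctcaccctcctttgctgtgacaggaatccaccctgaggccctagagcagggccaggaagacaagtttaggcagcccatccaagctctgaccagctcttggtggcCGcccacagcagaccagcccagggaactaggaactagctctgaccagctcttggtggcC
Vgll4: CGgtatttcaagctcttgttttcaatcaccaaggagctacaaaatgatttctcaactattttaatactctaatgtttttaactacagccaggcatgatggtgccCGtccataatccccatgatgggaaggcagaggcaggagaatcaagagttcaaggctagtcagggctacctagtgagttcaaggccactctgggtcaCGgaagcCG
In the Wwtr1 stretch the CpGs are spread over 277 bases, and 4 of the 13 CpG cytosines that lie in it on either strand were measured. In the Vgll3 stretch, 10 of 12 were measured within 129 bases. The Yap1 value rested on 3 of 7 cytosines and the Vgll4 value on 4 of 8.

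Of the 8 regions, 5 had lower methylation in the tumors (hypomethylated, here called losses) and 3 had higher methylation (hypermethylated, gains). Over all regions listed, 85.1% were losses and 14.9% gains. The median difference was -23.6 points over the 8 regions and -23.9 points over all regions, and the 5 losses and 3 gains give no more than a description at this number. The largest by far was the loss at Wwtr1 (-52.3 points), and the other 7 regions lay between 22.0 and 27.7 points in absolute size. Only the Wwtr1 region reached the study's own threshold of 30 points for a differentially methylated region (DMR), 1 of 8 against 23.5% of the table, or 18.0% of it for losses alone. No region below 20 points in absolute size is listed for any gene, so smaller differences at these genes could not be seen.

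**Figure D1:**
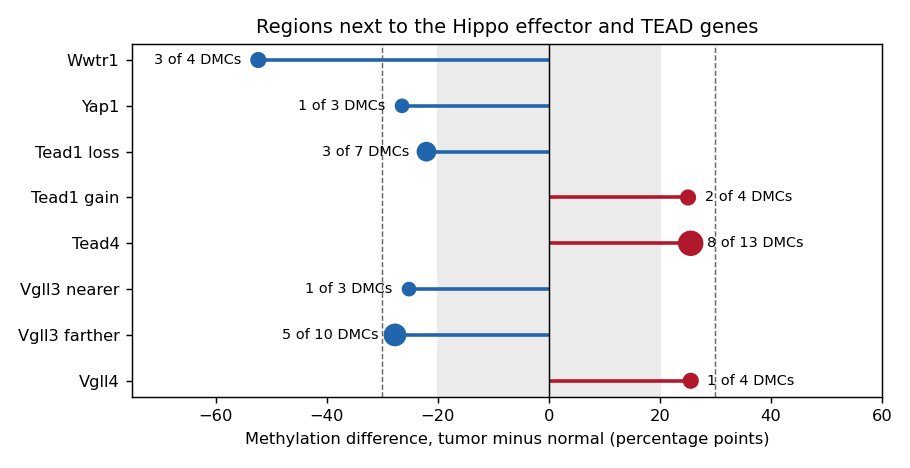
Difference in percent methylation, tumor minus normal, in percentage points (x axis) for each of the 8 regions (y axis). Blue marks losses and red gains, the point grows with the number of measured cytosines, the text gives differentially methylated cytosines (DMCs) of those measured, the grey band is the range the table does not list, and the dashed lines are at 30 points. Wwtr1 at -52.3 points is the only region past a dashed line.

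Both coactivator genes carried losses inside their own introns, the usual direction there, as only 19.9% of the table's intronic regions were gains. Wwtr1 encodes TAZ, the paralog of YAP, and its region lay in intron 2 of 6 of the listed RefSeq transcript, 1486 bp downstream of the TSS and 433 bp from the nearest exon. The mean difference there was -52.3 points, with 3 of 4 measured cytosines called DMCs. The region was 299 bp from a CpG island of 1961 bp that spans the TSS, and thus in the island's shore. By size the Wwtr1 loss was number 55 of the 12059 losses in the table, whose largest was -79.0 points. Among the 583 losses within 2 kb of a listed TSS, 10 were at least as large, Wwtr1 included. It rested on 4 measured cytosines. Of the 69 losses of 50 points or more (0.487% of the table), 26 rested on at most 4, and 45.2% of all regions did. No other table region lay within 140 kb of it, the nearest being a loss next to Rnf13 of -28.5 points at 140068 bp.

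Yap1 encodes YAP itself. Its region lay in intron 2 of 8, 26737 bp downstream of the TSS and away from any island, at -26.4 points with 1 of 3 measured cytosines a DMC. The loss was thus 25.9 points smaller than that of Wwtr1. Within 500 kb of it the table held just 1 other region, a loss of -23.8 points next to Mmp10.

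Among the 4 TEAD genes, Tead1 and Tead4 carried regions. Tead1 was the only gene of the set with both a loss and a gain. The loss, at chr7:112699467-112699885, lay in intron 1 of 13, 20147 bp downstream of the listed TSS, at -22.0 points with 3 of 7 cytosines DMCs. The gain, at chr7:112856514-112856725, lay in intron 4 of 11 of its listed transcript, 73 bp from the nearest exon, at 25.1 points with 2 of 4 cytosines DMCs. The 2 regions were 156628 bp apart within 1 gene and differed by 47.1 points. The table lists the gain at 97130 bp from a second Tead1 start. In the annotation used here, however, all curated RefSeq transcripts of Tead1 begin at 1 site. From that site the loss stood at 20111 bp and the gain at 177158 bp. Within 500 kb, 6 of the 8 other regions around the loss and 7 of the 8 around the gain were losses, where 85.1% of the table were.

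Tead4 carried a gain of 25.5 points at chr6:128296369-128297305, in intron 1 of 11 and 3508 bp downstream of the TSS. At 937 bp and 13 measured cytosines it was the longest of the 8 regions and held the most measured cytosines, and 8 of its cytosines were DMCs. A CpG island of 1431 bp that spans the Tead4 TSS ended 2275 bp away. Of the 9 other regions within 500 kb 8 were losses, near the 85.1% of the table, and the nearest region was next to Tspan9 at -24.5 points.

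**Figure D2:**
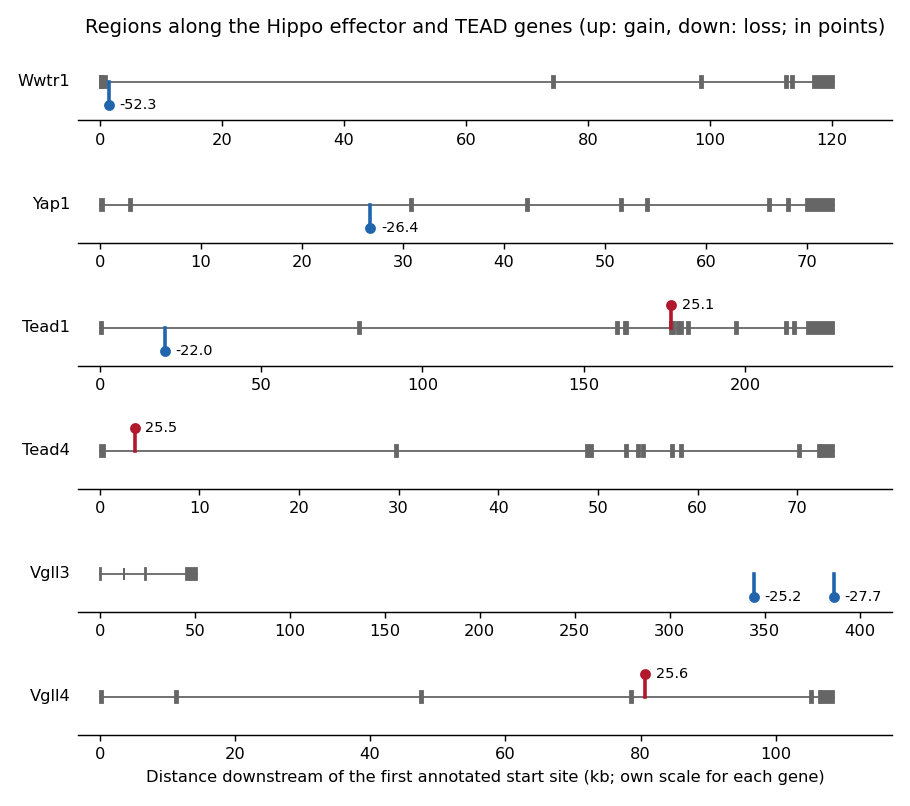
Position of each region along its gene, as the distance in kb downstream of the first RefSeq start site (x axis, a scale of its own for each gene), with exons as grey boxes. Red stalks up are gains and blue stalks down are losses, labelled in percentage points. The Wwtr1 loss (-52.3) and the Tead4 gain (25.5) sit near the start of their genes, and both Vgll3 losses lie far beyond the gene's end.

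The VGLL cofactor genes were split. Vgll4, whose product represses YAP activity at TEADs, had a gain of 25.6 points in intron 2 of 4, 33274 bp downstream of the listed TSS and 80725 bp downstream of the first RefSeq start of the gene. Only 1 of the 4 measured cytosines was a DMC, the lowest share of the set, and 48.8% of the region was repeat-masked.

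Vgll3 was the nearest listed gene of 2 losses that lay in no curated RefSeq gene. They stood 343735 and 385856 bp downstream of its TSS, or 293000 and 335121 bp past the end of the gene, with Cadm2, a cell adhesion gene, as the next gene on the other side. The nearer region, at chr16:66159368-66159462, had a difference of -25.2 points with 1 of 3 cytosines a DMC, and all of its bases (100%) were repeat-masked. The farther one, printed above, had -27.7 points with 5 of 10 cytosines DMCs and was 38.0% repeat-masked. They were 42026 bp apart. These regions are tied to Vgll3 by distance alone, and 91.8% of the 7765 intergenic regions of the table were losses.

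The table listed no region next to Tead2, Tead3, Lats1 or Lats2. It holds only regions that changed, so whether cytosines of these 4 genes were measured and did not differ, or were not covered, is not known here. Their gene bodies hold MspI sites in the reference, 31 in Tead2, 59 in Tead3, 29 in Lats1 and 81 in Lats2. The genes with a region inside the body held from 56 (Yap1) to 194 (Tead1). Vgll3, whose regions lay past its end, held 26. The 4 genes without regions ran from 17677 bp (Tead2) to 56462 bp (Lats2). Those with a region inside the body were longer, from 72598 bp (Yap1) to 227429 bp (Tead1). Vgll3, at 51180 bp, was shorter than Lats2. MspI sites did not split the genes in this way, since Lats2 (81) held more than Yap1 (56) and Tead4 (77). The nearest table region to Tead2 was 51252 bp away, in an intron of Slc6a21 at -43.3 points, and that to Tead3 was 28711 bp away, next to Tulp1 at -27.9 points. For Lats1 it was a gain of 55.0 points in a coding exon of Zc3h12d at 150819 bp, and for Lats2 a loss of -20.3 points in a coding exon of Il17d at 147026 bp.

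**Figure D3:**
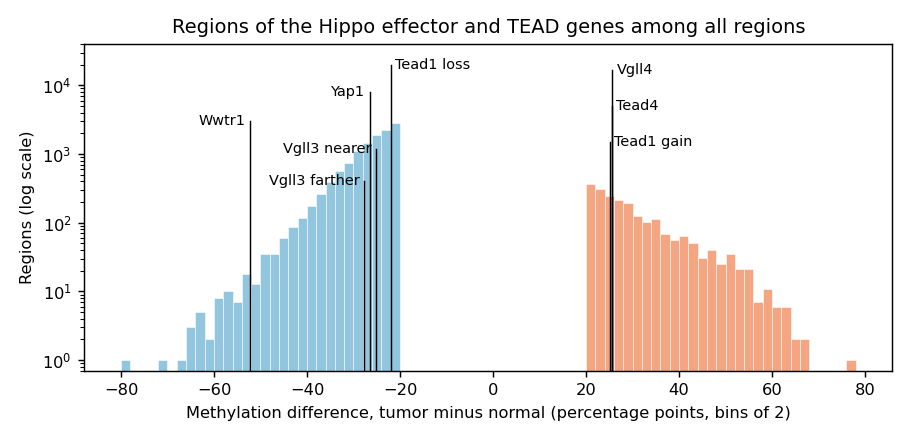
Number of regions in the whole table (y axis, log scale) by difference in percent methylation, tumor minus normal (x axis, percentage points, bins of 2), losses in blue and gains in orange. Black lines mark the 8 regions of the Hippo effector and TEAD genes, and 7 of them lie near the inner edges of the distribution while Wwtr1 lies in the far tail of the losses.

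The position of the 8 regions is set beside the table here, on measures that their choice did not use. All 8 lay downstream of their listed TSS, against 56.6% of the table. Introns held 6 of 8, each an intron of the listed gene. Of all regions 33.4% were in introns of any gene, the listed one or another, and 54.8% were intergenic. None overlapped a CpG island, by a definition from the sequence that 9.21% of the table met, and 1 of 8 (Wwtr1) lay in a shore against 15.8%, counts too small to set the 8 apart. Of the 6 regions in introns 3 were gains, where 19.9% of the 4730 intronic regions of the table were.

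Most of the 8 regions were sparse in measured cytosines. The median was 1.78 measured cytosines per 100 bp, against 3.53 in the table, and 6 of the 8 regions lay below the table's lower quartile of 2.38, while the farther Vgll3 region, at 7.75, lay above its upper quartile of 5.33. A median of 41.7% of the CpG cytosines in a region had been measured, against 66.7% in the table. Regions with a single DMC made up 3 of the 8 (Yap1, Vgll4 and the nearer Vgll3 region) and 16.6% of the table. Over all 8 regions, 24 of 48 cytosines were DMCs (50%), close to the 53.5% of the table. GC content with 500 bp of flank on each side (median 47.1% against 47.3%) and the observed to expected CpG ratio (0.248 in both) were like those of the table. The TEAD binding core GGAATG, searched on both strands in the 300 bp around each centre, was found at 2 of the 8 regions (the Tead1 loss and the farther Vgll3 region) and in 15.3% of such windows over the table.

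In the table the split between losses and gains differed with distance from the TSS, and the 8 regions are set beside it here. Losses made up 66.6% of the 876 regions no more than 2 kb away. They made up 75.6% of the 3723 regions up to 20 kb away, 84.8% of the 4928 up to 100 kb away and 96.4% of the 4649 still farther out. The Wwtr1 loss fell in the first class and the Tead4 gain in the second. The third held the losses of Yap1 and Tead1 and the gains of Tead1 and Vgll4, and the last held both Vgll3 losses. Measured from the Tead1 start of the annotation used here (177158 bp), the Tead1 gain would move to the last class, where 96.4% of regions were losses.

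**Figure D4:**
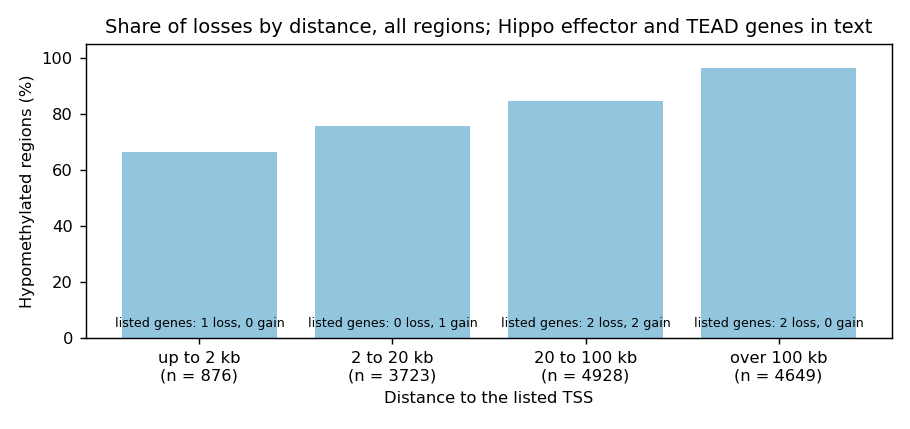
Share of hypomethylated regions in percent (y axis) by distance to the listed TSS (x axis, with the number of regions), over the whole table. The text in each bar counts losses and gains of the Hippo effector and TEAD genes, whose 3 gains lie between 2 and 100 kb of their listed TSSs, the Tead1 gain at 177158 bp by the annotation used here.

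Other genes of the pathway were taken from a list of 83 built on their known roles, of which 29 had regions, 72 in all. Of these 72 regions 61 were losses (84.7%) and 11 gains, with a median of -25.2 points, near the 85.1% and -23.9 points of the table. At 30 points or more stood 19 regions (26.4%, against 23.5% of the table). The lists were not tested against the table. It lists 6741 genes, but the share of all mouse genes with a region was not counted. Whether the counts of genes with regions, here and below, are few or many is thus not known.

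Upstream of LATS, the kinase core and its scaffolds had 9 losses (81.8%) and 2 gains next to 3 of 20 genes, where 85.1% of the table were losses. Over 100 kb from the TSS lay 7 of these 11 regions, all of them losses, where 96.4% of the table's regions were. None of the 11 was next to the MST kinase genes Stk3 and Stk4, Sav1, Mob1a, Mob1b or Nf2. Wwc1, which encodes the scaffold KIBRA, accounted for 8 losses, but 7 of them lay in introns of the neighbouring Tenm2, among them all 3 of at least 30 points (from -31.7 to -36.6 points). Its paralog Wwc2 had 2 gains in its own introns, of 35.4 points with 3 of 3 cytosines DMCs and of 23.9 points. Taok3, a kinase gene upstream of the core, had a loss of -23.8 points.

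The upstream regulators and adaptors, from polarity and junction genes to angiomotins, had 16 losses (66.7%) and 8 gains next to 13 of 34 genes, against 85.1% losses in the table. Only 5 of these 24 regions lay over 100 kb from the TSS, 4 of them losses. The rest lay nearer, where losses made up 66.6 to 84.8% of the table by class of distance. Amotl2, an angiomotin that holds YAP at junctions and is also induced by it, had the largest difference of the pathway, a gain of 62.3 points in a coding exon with 16 of 16 cytosines DMCs, 10644 bp downstream of its TSS. Rassf5 had a gain of 30.2 points in an intron. Losses of at least 30 points were next to Amot (-36.9), Frmd6 (-31.8), Ptpn14 (-31.6) and Ajuba (-30.9 points), the last in a coding exon of this LIM protein gene that restrains LATS, with 8 of 12 cytosines DMCs. These losses of Amot and Frmd6 were intergenic, at -695623 and -42245 bp from the listed TSS, and tied to the genes by distance alone. Pard3, a polarity gene, was the nearest gene of 3 gains and 1 loss, from -23.9 to 26.3 points.

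Genes that YAP, TAZ and TEAD are known to switch on had 36 losses (97.3%) and 1 gain next to 13 of 29 genes, against 85.1% losses in the table. Of these 37 regions 17 lay over 100 kb from the TSS, all of them losses, where 96.4% of the table's regions were. The rest, with the 1 gain, lay nearer, where losses made up 66.6 to 84.8% of the table by class of distance. This difference was not tested. The counts leave out Amotl2, which YAP also induces but which was listed with the adaptors, and its gains of 62.3 and 20.6 points. Rbms3 alone had 17 of the 36 losses, 12 of them over 100 kb away. The largest was -45.3 points next to Axl, a receptor tyrosine kinase gene, upstream of its TSS (at -9101 bp) with 6 of 6 cytosines DMCs. Others past 30 points were 3 in introns of Rbms3 (-38.4 the largest), 1 each next to Edn1 (-35.4), Jag1 (-34.1) and Tgfb2 (-30.9), and 2 next to Crim1 (-31.9 and -31.3 points). From the listed TSS, the Edn1 region lay at -40121 bp, that of Jag1 at -181414 bp and that of Tgfb2 at 123584 bp. Those of Crim1 lay at -918947 and -171770 bp. The regions of Edn1, Jag1, Tgfb2 and Crim1 past 30 points were intergenic, tied to these genes by distance alone. Ctgf, the target most used as a readout of YAP, had 1 loss of -20.7 points, and Ankrd1 had 3 losses of -21.1 to -25.7 points that lay upstream of it. The single gain was in an intron of Tgfb2, at 20.7 points.

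**Figure D5:**
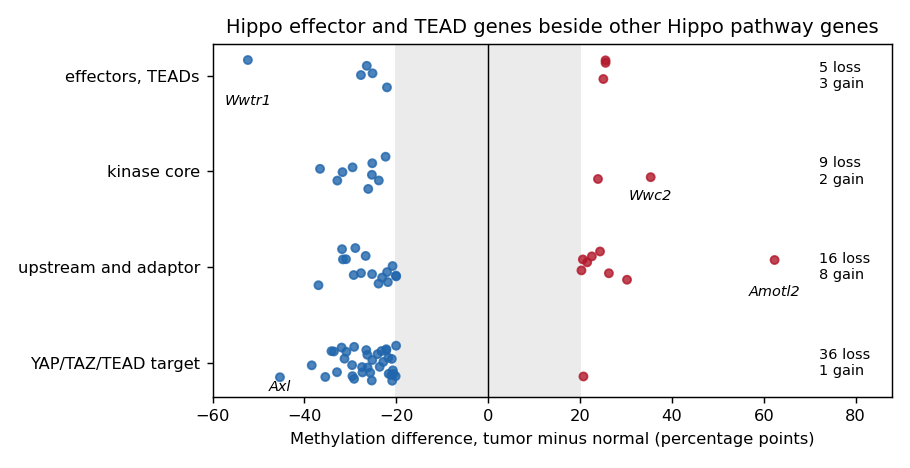
Difference in percent methylation, tumor minus normal, in percentage points (x axis) for every region of the Hippo effector and TEAD genes and of the other Hippo genes by role (y axis; points are spread at random in height within a row). Blue points are losses and red points gains, counted at the right, and the grey band is the range the table does not list. The targets hold 36 losses and 1 gain. Amotl2, listed with the adaptors though YAP also induces it, has the largest gain at 62.3 points.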

How the data were processed

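Genomic DNA of 3 normal livers and 3 liver tumors was analysed by RRBS. The authors trimmed reads with Trim Galore, aligned them to mm10 with Bismark, counted C and T reads per CpG cytosine and strand with methylKit, called DMCs by logistic regression with limits on q-value, coverage and difference, joined regions with eDMR and listed the nearest RefSeq TSS with bedtools 2.25.0 (submitters' processing notes). The deposited table gives, per region, the authors' mean difference in percentage points (percent methylation, tumor minus normal) and the numbers of CpG cytosines and DMCs. It holds at least 3 cytosines and 1 DMC per region. Read depth per region is not known here, so the precision of a single value is not known either. The authors' differences were used as given, because the table has no values per sample.

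Starts and listed TSSs count from 0 (starts lay in a CpG for 13.9% as given and 100% after adding 1, and listed TSSs equalled a RefSeq start of the gene for 0.0847 and 79.8%), so 1 was added to both. Features, intron numbers and sequences came from RefSeq on GRCm38 with Python 3.11.15 and pysam 0.24.0. Only curated RefSeq transcripts (NM and NR) were used, so start sites, introns and intergenic calls leave out predicted transcripts. Islands were windows of 200 bp with 50% GC and a CpG ratio of 0.6, joined where they touched and kept from 300 bp up, and a shore reached 2000 bp. The regions and lists were chosen with earlier results of these data known. Every region of the 10 genes is described. Of the other Hippo genes, those past 30 points are named, with at most 3 more per list, by size, and Stk3, Stk4, Sav1, Mob1a, Mob1b, Nf2, Taok3, Pard3, Ctgf and Ankrd1 were named after their values were seen. Island finding and feature calls were tested on simulated data.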

Additional observations from a re-analysis of the deposited data

How the results depend on the processing

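Assignment by the gene a region overlaps gave the same 8 regions. The share of losses among them was 62.5% (exact 95% interval 24.5 to 91.5%, counting error of regions only). This interval takes the 2 regions of Tead1 and the 2 of Vgll3 as separate draws, and it holds the 85.1% of the table. At 30 or 40 points or more Wwtr1 alone remained (100%), and the other alternatives gave 50 to 75%. Those alternatives reuse the same few regions, so shares inside so wide an interval do not show that the result is stable. The count past 30 points was 0 with at least 5 or at least 10 cytosines, because Wwtr1 rests on 4, and 7 at 25 points. The median difference was -1.07 points with at least 10 cytosines and -13.4 points within 20 kb of the TSS (2 regions each), and -52.3 points at 30 or 40 points or more. Without Wwtr1 it was -22.0 points, and without both Vgll3 regions 50% were losses, alternatives chosen after the data were seen. For the other Hippo genes the share of losses was 62.5% with at least 10 cytosines, 66.7% within 20 kb and 50% at 40 points or more, and 76.6% without Rbms3 and Wwc1 (chosen after the data were seen). No paired analysis was possible because the table has no values per sample, and leaving out a mouse was not possible for the same reason.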
